A study of Mus musculus with 18 samples.

Results

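The 10 genes of the smooth muscle contractile apparatus described here were followed across 18 two-colour arrays of mouse intestine: Des, Cnn1, Acta2, Actg2, Myl9, Myh11, Cald1, Tagln, Smtn and Lmod1. They were taken from a fixed list of names, and all 10 of 10 were measured among the 26073 genes tested. They were read by 14 probes, and each of these probes was well above background on all 18 arrays. The arrays carried RNA of male C57BL/6 mice in 6 groups of 3, which differed in diet (a control diet or one with St. John's wort, SJW), in injection (saline or the colon carcinogen azoxymethane, AOM) and in tissue. The 4 non-tumour groups were control diet with saline, SJW with saline, control diet with AOM and SJW with AOM. The 2 tumour groups were tumours of AOM-injected mice on the control diet and on SJW. Animal age, AOM dose and SJW dose are not given in the sources used here. The design names the 3 arrays of a group as biological replicates.

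In the intestinal wall, smooth muscle forms the muscularis mucosae beneath the epithelium and the circular and longitudinal layers of the muscularis propria. Contraction comes from smooth muscle myosin pulling on filaments of alpha and gamma smooth muscle actin. Calcium-activated myosin light chain kinase switches it on. Calponin, caldesmon and other actin-binding proteins tune it, and desmin filaments tie the contractile bundles together. Many of these genes are known targets of serum response factor with its partner myocardin, which acts through a short promoter element called the CArG box.

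Each value below is a log2 ratio of the sample, in the red channel, over a pooled reference in the green channel, so a difference of 1 is a doubling. The reference was bought RNA, pooled from Swiss Webster mice: from embryo, brain, thymus, heart and lung, and from liver, spleen, kidney, testicle and ovary, with no intestine in it. A ratio of 0 therefore means the level of that pool and not a low level, and ratios of different genes are not set against each other as levels. A gene is called changed at a Benjamini-Hochberg adjusted p under 0.05 in limma, adjusted over all 26073 genes.

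Both promoters in which matches to the CArG box were found are shown here. Whether these matches bear on how the genes moved across the arrays was not tested. The RefSeq table of mouse build GRCm38.p6 held 8 start sites of 7 of the 10 genes. The 250 bases before each start were searched on both strands for the CArG box, a run of A or T bases between CC and GG. A match was exact or had 1 substitution within the A or T run. Sequences with a change in the outer CC or GG were not counted. The capitals mark the matches.
Acta2, chr19:34255374-34255623, minus strand: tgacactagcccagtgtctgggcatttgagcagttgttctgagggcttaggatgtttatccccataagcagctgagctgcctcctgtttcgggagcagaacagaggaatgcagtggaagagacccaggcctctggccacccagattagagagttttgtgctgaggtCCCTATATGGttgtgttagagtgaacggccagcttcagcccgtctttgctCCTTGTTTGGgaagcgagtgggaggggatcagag
Myl9, chr2:156775214-156775463, plus strand: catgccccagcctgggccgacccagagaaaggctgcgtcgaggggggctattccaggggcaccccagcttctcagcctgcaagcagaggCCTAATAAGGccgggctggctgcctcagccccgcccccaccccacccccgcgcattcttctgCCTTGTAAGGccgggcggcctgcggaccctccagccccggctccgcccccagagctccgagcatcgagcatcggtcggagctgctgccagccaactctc
In Myl9 an exact match began 161 bases before the start, and a match with 1 substitution began 99 bases before it. Acta2 held 2 matches with 1 substitution, which began 84 and 34 bases before its start. An exact match was in 1 of the 8 windows and a match of either kind in 2 of them. Over all 32851 promoter windows of that length, 1.47% held an exact match and 8.59% a match of either kind. The windows of Des, Cnn1, Cald1, Smtn and Lmod1 held no match of these kinds. That says nothing of sites elsewhere in those genes, or of sites with a change in the outer CC or GG.

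The tissue labels and the RNA were compared first. The labels give small intestine as the tissue, while the extraction protocol names liver. The non-tumour arrays carried strong signals of genes typical of the colon. Car1, a carbonic anhydrase of the colon surface, lay 6.34 to 8.38 above the pool on the log2 scale, and Hoxb13, a gene of the hindmost body segments, 0.94 to 3.16 above it. The other colon genes checked were Car4 at 1.6 to 3.7, Aqp8 at 2.31 to 4.6, Retnlb at 3 to 6.46 and Hoxd13 at 0.09 to 4.97. Hoxd13 thus varied widely between these arrays, and whether they differ in gut position was not tested. Of the 8 small intestinal genes checked, Fabp2, a fatty acid binding protein of enterocytes, lay 3.45 to 6.14 above the pool and Rbp2, a retinol binding protein, 2.47 to 4.14. Sis, Apoa4, Alpi and Ada were well above background on all 12 of these arrays, Fabp6 on 11 and Lct, the lactase, on 8. Their ratios were lower: Sis 0.04 to 1.48, Apoa4 -0.15 to 1.44, Alpi -0.5 to 0.22 and Ada -0.29 to 0.67. Fabp6 lay at 0.36 to 3.03 and Lct at -0.24 to 0.91. Red intensities were 101 to 230 for Sis and 86 to 167 for Lct. Of the liver genes, Alb, the liver's albumin, was well above background on 9 of the 12, with red intensities of 84 to 203. Fgb was so on 10, with 87.5 to 157, and Serpinc1 on 12, with 122 to 432. Against the pool, Alb lay at -4.08 to -1.9, Fgb at -1.84 to -0.38 and Serpinc1 at -1.83 to 0.32. "Intestine" is therefore used throughout, without a segment. The 4 non-tumour groups shared 3 slides, 1 array of each group per slide. The tumour arrays lay on 2 further slides scanned on another day, so that tumour tissue and the slides and scan day cannot be told apart in any comparison of tumours. The median red intensity was 133 to 375 on the non-tumour arrays and 336.5 to 786.5 on the tumour arrays, and 66% to 91.8% of probes were well above background.

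Of the non-tumour arrays, 3 stood apart in genes of other cell types. SJW AOM replicate 2, which had the highest mean of the contractile genes (2.54), had a mean of 0.08 for 11 fibroblast and matrix genes, against -2.4 to -0.82 on the other 11 arrays. Its mean for 18 striated muscle genes was 0.11, against -1.43 to -0.73. SJW AOM replicate 3, the lowest AOM array for the contractile genes (0.31), had a mean of 3.63 for 9 pancreatic acinar genes, against -1.47 to 1.31. SJW saline replicate 3, the lowest array of its group for the contractile genes (-0.95), had a mean of -0.17 for 7 adipocyte genes, against -1.87 to -0.88. Their part in the results was not tested beyond leaving each out.

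The contractile genes of non-tumour intestine were higher after AOM than after saline when both diets were averaged. Of the 10 genes, 9 rose, by 0.78 to 2.55 on the log2 scale (1.72-fold to 5.88-fold), and Tagln was higher without passing the test. The median change of the 10 genes was 2.03, against -0.02 over all genes. Of all genes tested, 5.57% were called in this comparison and 3.28% were called higher, against 9 of these 10. In bulk tissue, a change in the share of muscle cells and a change in RNA per muscle cell cannot be told apart. This holds here and in the comparisons that follow.

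Des encodes desmin, the intermediate filament of muscle. In control-diet saline mice its ratios were 0.7, -1.38 and 1.55, and in SJW saline mice 0.33, 0.58 and -1.73. After AOM they were 3.11, 3.72 and 1.57 on the control diet and 2.34, 3.87 and 0.76 on SJW. One AOM array, that of SJW replicate 3, lay within the range of the saline arrays, and the others lay above it. The change was 2.55 ± 0.58 (SE, 6 against 6 arrays, limma adjusted p = 0.0185), a 5.88-fold rise.

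The actins of smooth muscle were Actg2, the gamma isoform that dominates in gut muscle, and Acta2, the alpha isoform shared with vessels and myofibroblasts. Actg2 gave 0.08, -2.48 and 0.18 in control-diet saline mice and -0.63, -0.23 and -1.81 in SJW saline mice. It gave 1.91, 2.59 and 0.7 after AOM on the control diet and 0.82, 2.76 and 0.29 on SJW. All 6 AOM arrays lay above all 6 saline arrays, which was so for 2 of the 10 genes, Actg2 and Acta2. It was so for 2.24% of all genes in this direction. For Acta2 it held by the brightest probe only. On probe A_52_P420504, SJW AOM replicate 3 (-0.21) lay below control-diet saline replicate 3 (0.04). On probe A_52_P210078 these arrays gave 0.73 and 1.44. Actg2 rose by 2.33 ± 0.51 (SE, adjusted p = 0.0166). Acta2, read by its brightest probe, moved over a narrow range: -0.35 to 0.08 on the saline arrays and 0.16 to 1.25 on the AOM arrays. Its rise was 0.78 ± 0.17 (SE, adjusted p = 0.0154).

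The myosin subunits were Myh11, the smooth muscle heavy chain, and Myl9, its regulatory light chain, the substrate of the light chain kinase. Myh11 gave 0.95, -1.48 and 1.63 in control-diet saline mice and 0.81, 0.79 and -1.12 in SJW saline mice. After AOM it gave 3.35, 3.24 and 1.75 on the control diet and 2.53, 3.24 and 0.39 on SJW. As for Des, SJW AOM replicate 3 was the array inside the saline range, and Myh11 rose by 2.15 ± 0.55 (SE, adjusted p = 0.0341). Myl9 ran from -1.61 to 0.71 in saline mice and from 0.12 to 2.51 after AOM, with a rise of 2.03 ± 0.42 (SE, adjusted p = 0.0132).

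The remaining members bind or build actin filaments. Cnn1, calponin, damps the myosin ATPase and gave 1.13, -1.59 and 2.08 in control-diet saline mice, the widest range of any group among the 10 genes. Its AOM values were 3.26, 3.69 and 1.62 on the control diet and 2.72, 3.71 and 0.92 on SJW, and its rise of 2.17 ± 0.60 (SE) had an adjusted p of 0.0454. Cald1, caldesmon, had the lowest adjusted p among the members, 0.00577, with a rise of 2.04 ± 0.36 (SE). It ran from -1.34 to 0.53 in saline mice and from 0.39 to 2.62 after AOM.

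Smtn, smoothelin, a protein of contractile smooth muscle, rose by 1.23 ± 0.25 (SE, adjusted p = 0.0122). Lmod1, leiomodin, which starts new actin filaments, rose by 1.34 ± 0.32 (SE, adjusted p = 0.0258). Tagln, transgelin, an actin-bundling protein, gave -0.08, -1.15 and 0.35 in control-diet saline mice and -0.09, 0 and 0.06 in SJW saline mice. After AOM it gave 1.18, 1.74 and 0.1 on the control diet and 0.88, 1.67 and -0.15 on SJW. Its difference of 1.05 ± 0.31 (SE) had an adjusted p of 0.059.

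**Figure D1:**
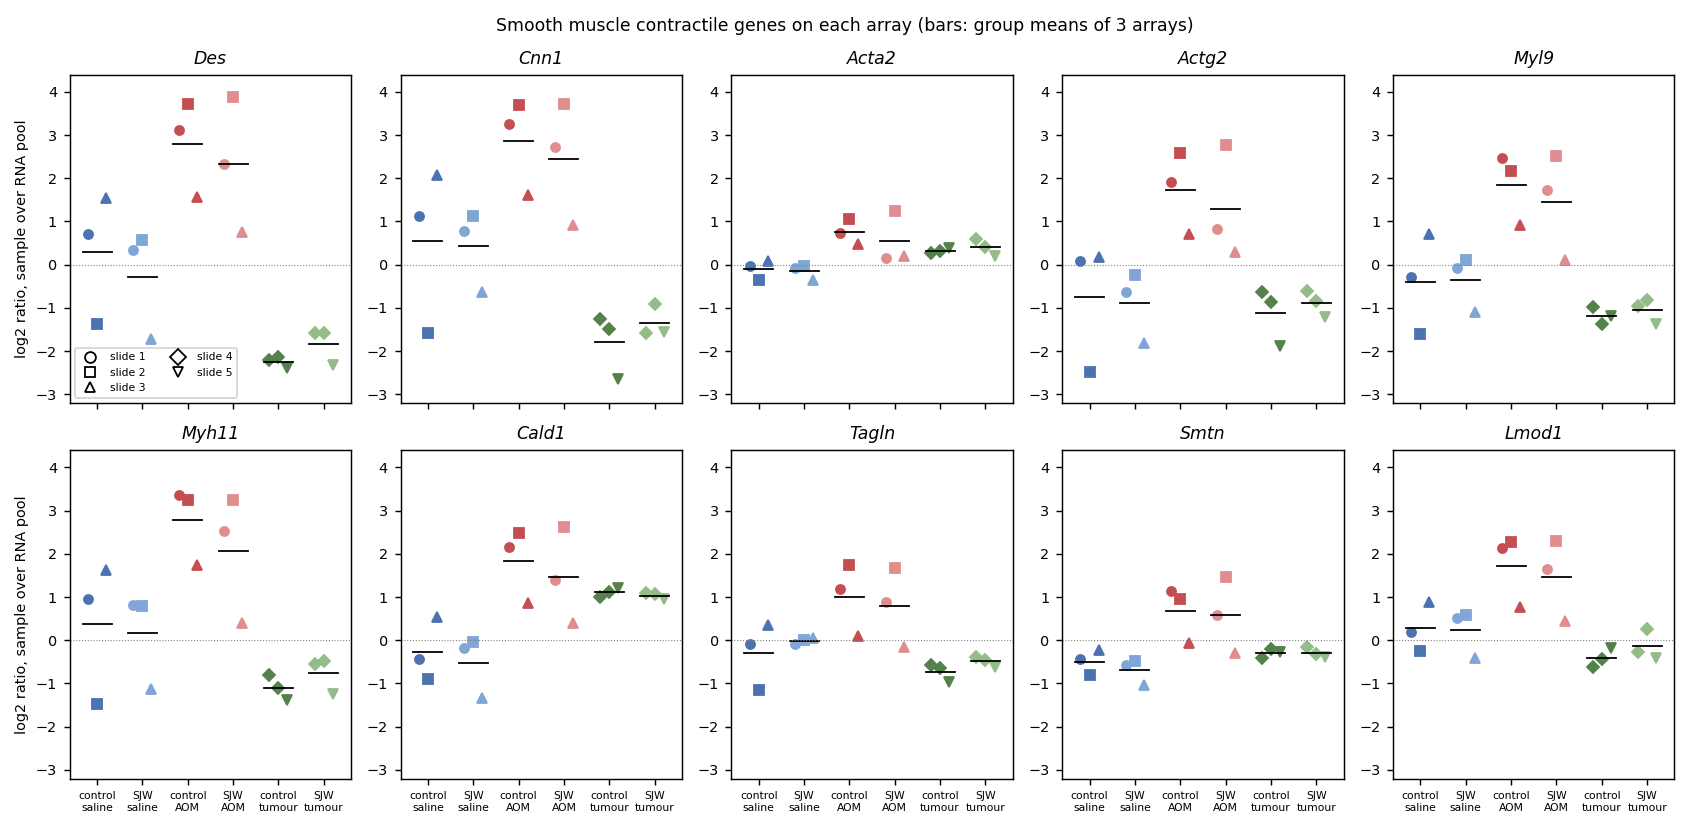
Log2 ratio of sample over the RNA pool (vertical axis) on each of 3 arrays in the 6 groups (horizontal axis), 1 panel per gene; bars are group means and marker shapes are slides. Genes with more than 1 probe are shown by the brightest. Actg2 and Acta2 are the panels in which all AOM arrays lie above all saline arrays. The tumour points of most genes sit close together and low.

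The rise was less firm than the count of 9 on its own says. Within each diet, with 3 against 3 arrays, limma called 0 of the 10 genes: the median change was 2.17 on the control diet and 1.85 on SJW, with adjusted p of 0.0746 to 0.222 and 0.0663 to 0.322. At an unadjusted p under 0.05 the counts were 10 and 9, against 13.6% and 19.3% of all genes. Of all genes, 0.583% and 1.14% were called at the adjusted threshold. The fit of all 18 arrays takes 1 spread per gene from both tissues, and these genes varied less in tumours than in non-tumour tissue. Without SJW AOM replicate 2 the AOM count averaged over diets was 6, with a median of 1.76, and without SJW saline replicate 3 it was 6, with a median of 1.83. Without SJW AOM replicate 3 all 10 were called, with a median of 2.34. With the 12 non-tumour arrays alone, 5 of the 10 were called (Acta2, Actg2, Myl9, Cald1 and Smtn). Without control-diet AOM replicate 1 the count was also 5, and with the brightness of the reference channel as a block it was 5 again. The brighter reference was unevenly spread, on 4 of the 6 saline arrays and 1 of the 6 AOM arrays.

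The slides divided the effect further, since each of the 3 held 1 array of each non-tumour group. On the control diet, the median AOM-minus-saline difference of the 10 genes was 2.03 on slide 1, 3.57 on slide 2 and 0.15 on slide 3. On slide 3 the genes ran from -0.46 for Cnn1 to 0.52 for Actg2, with 7 of 10 above 0. On SJW the medians were 1.51, 2.43 and 1.36, with 10, 10 and 9 of the genes above 0. The sign of the median was thus the same in all 6 pairs, while its size was near that of all genes in 1 of them. With slide as a block, 8 of 10 were called.

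**Figure D2:**
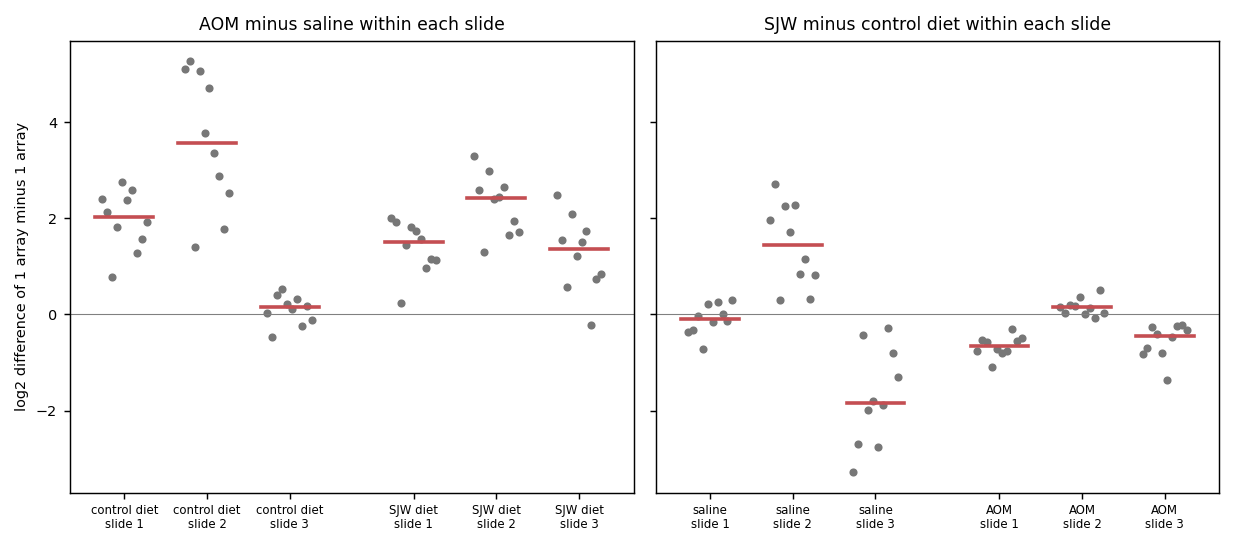
Differences between 2 arrays of the same slide (vertical axis, log2), AOM minus saline on the left and SJW minus control diet on the right; each point is 1 of the 10 genes and the red bar is their median. All 6 medians on the left are above 0, from 0.15 to 3.57, while those for diet after saline run from -1.84 to 1.44.

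No difference between the diets in the AOM effect was detected: by the interaction term in limma 0 of the 10 genes were called and 0% of all genes, with 0 of the 10 at an unadjusted p under 0.05, where 9.34% of all genes passed the unadjusted threshold. The intervals were wide. For Des the 95% interval of the difference ran from -2.36 to 2.53, and for Acta2 from -0.88 to 0.55.

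Tumours carried less contractile gene RNA than the non-tumour intestine of AOM-injected mice. Averaged over diets, 8 of the 10 genes fell, by 0.93 to 4.60 on the log2 scale, and the median of the 10 was -2.19 against -0.06 for all genes. The background was high in this comparison, since 46.6% of all genes were called and 27.2% were called lower. Des had the largest change of the 10, and Acta2 and Cald1 did not pass the test. The same 8 passed on the control diet, where 32% of all genes were called, 19.3% lower. On SJW 7 passed, Smtn being the one that did not, where 24.6% of all genes were called, 15.4% lower.

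Des lay at -2.2, -2.14 and -2.38 in control-diet tumours and at -1.59, -1.59 and -2.32 in SJW tumours. Every tumour array was below every non-tumour AOM array, whose lowest value was 0.76. The change was -4.60 ± 0.58 (SE, adjusted p = 1.24e-05), a 24.3-fold fall. Cnn1 fell by 4.23 on the log2 scale (SE 0.60, adjusted p = 4.03e-05), with tumour values of -1.25, -1.49 and -2.64 on the control diet and -1.57, -0.92 and -1.56 on SJW.

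Myosin and gamma actin followed. Myh11 fell by 3.34 (SE 0.55, adjusted p = 0.00017), with tumour values of -1.38 to -0.49. Myl9 fell by 2.77 (SE 0.42, adjusted p = 7.66e-05), with tumour values of -1.38 to -0.81. Actg2 fell by 2.52 (SE 0.51, adjusted p = 0.000937), with tumour values of -1.89 to -0.6. In each of these 3 genes the tumour and AOM arrays did not overlap, as for 7 of the 10 genes and for 15.9% of all genes in this direction.

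Of the actin-binding members, Lmod1 fell by 1.87 (SE 0.32, adjusted p = 0.000246), Tagln by 1.51 (SE 0.31, adjusted p = 0.00103) and Smtn by 0.93 (SE 0.25, adjusted p = 0.00667). Cald1 stood apart from them. Its tumour values were 0.99, 1.12 and 1.21 on the control diet and 1.09, 1.06 and 0.95 on SJW, inside the range of 0.39 to 2.62 of the AOM arrays. The difference was -0.58 ± 0.36 (SE, adjusted p = 0.205). Caldesmon also has forms made in non-muscle cells, and the 2 Cald1 probes gave nearly the same values across the arrays.

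**Figure D3:**
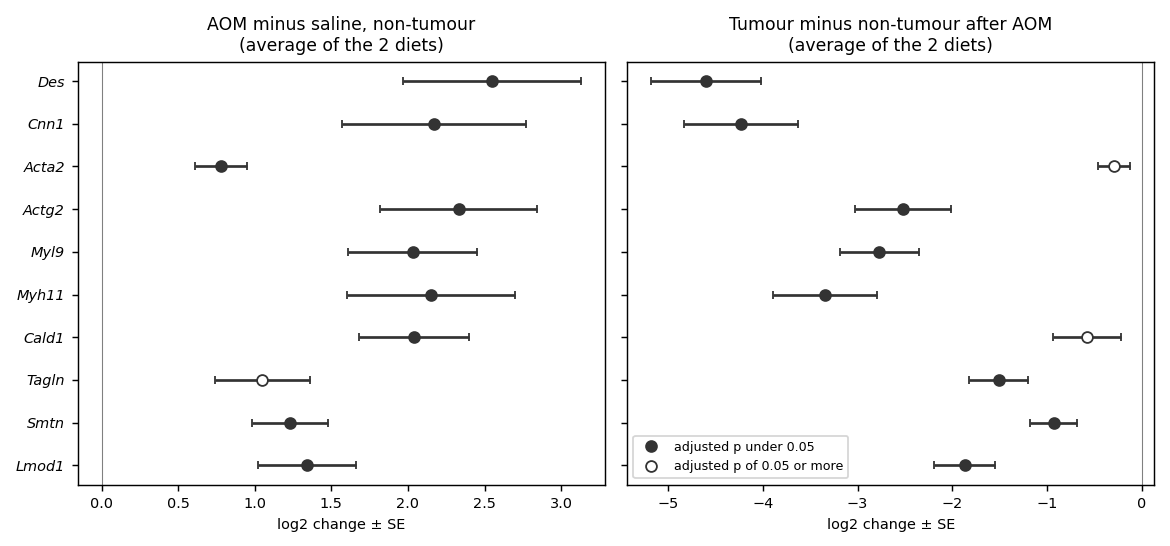
Log2 change of each gene with its standard error (horizontal axis), for AOM minus saline on the left and tumour minus non-tumour tissue after AOM on the right, both averaged over 2 diets; filled points passed the adjusted p threshold. On the left 9 genes are filled and on the right 8, where Des lies farthest from 0 at -4.60 and Acta2 nearest at -0.29.

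On SJW the count of 7 rested on single arrays. Leaving out SJW AOM replicate 1, SJW AOM replicate 2 or SJW tumour replicate 3 left 3 calls, and leaving out SJW tumour replicate 1 left 4. Averaged over diets, the count was 8 whichever array was left out, with a median of -1.9 without SJW AOM replicate 2 and -2.45 without replicate 3. For the drop from AOM tissue to tumour, the interaction term with diet in limma called 0 of 10 genes and 0% of all genes, 0 at an unadjusted p under 0.05, and 4.14% of all genes past the unadjusted threshold.

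Against saline tissue the tumours differed less, and the genes moved in both directions. These comparisons share their tumour arrays with those above. On the control diet, where 32.9% of all genes were called and 19.6% called lower, Des was lower by 2.53 ± 0.81 (SE, adjusted p = 0.026) and Cnn1 by 2.33 ± 0.85 (SE, adjusted p = 0.0447), and the other 8 were not called. Those 2 calls were lost without control-diet saline replicate 1 or without any 1 of the 3 control-diet tumour arrays, each of which left 0, and 1 was left without saline replicate 3. When loess was replaced by median centring, 0 genes fell and 2 rose. On SJW, where 36.2% of all genes were called and 13.7% called higher, Cald1 rose by 1.56 ± 0.51 (SE, adjusted p = 0.0267) and the other 9 were not called. That call was lost without SJW saline replicate 3 or any 1 of the SJW tumour arrays. On the control diet Cald1 was higher by 1.37 ± 0.51 (SE, adjusted p = 0.0518). In both diets every tumour array lay above every saline array for Cald1 and for the brightest Acta2 probe, and on SJW also for Smtn, as for 19% of all genes on the control diet and 20.1% on SJW in this direction. The other Acta2 probes gave other differences: A_52_P210078 was at -1.08 and -0.85 against saline on the control diet and SJW, and A_52_P420504 at -0.24 and 0.01, none of them called. Every tumour array lay below every saline array for Des on the control diet and for Cnn1 and Tagln on SJW, as for 24.3% of all genes on the control diet and 30.3% on SJW.

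The probes of a gene did not all give the same picture. Acta2 had 3 probes, and the brightest, A_51_P450957, changed least. A_52_P420504 rose with AOM by 2.40 ± 0.50 (SE, adjusted p = 0.0129) and was lower in tumours by 2.51 ± 0.50 (SE, adjusted p = 8e-04). A_52_P210078 rose by 2.00 ± 0.42 (SE, adjusted p = 0.013) and was lower in tumours by 2.96 ± 0.42 (SE, adjusted p = 3.98e-05). These p-values were adjusted over the 34081 probes tested. The 2 dimmer Acta2 probes thus changed by amounts near those of Actg2, and the Acta2 value of -0.29 ± 0.17 (SE, adjusted p = 0.174) for tumours belongs to 1 of 3 probes. The red intensity of the brightest probe ran from 12800 to 125000 and was not marked as saturated on any array; that of the other 2 ran from 2410 to 56600 and from 131 to 2930.

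Tagln showed the same division between its 2 probes. The brighter one, A_51_P450527, had red intensities of 17400 to 93900 and the AOM difference of 1.05 given above. The dimmer one, A_52_P517683, rose by 2.72 ± 0.62 (SE, adjusted p = 0.0192) with AOM and was lower in tumours by 3.66 ± 0.62 (SE, adjusted p = 0.000213). For Cald1 the probes gave 2.04 and 1.88 with AOM and -0.58 and -0.40 in tumours, with a correlation of 0.987 across the 18 arrays. With the mean of a gene's probes in place of the brightest, all 10 genes rose with AOM and 9 fell in tumours. The part of brightness in the probe differences was not tested.

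**Figure D4:**
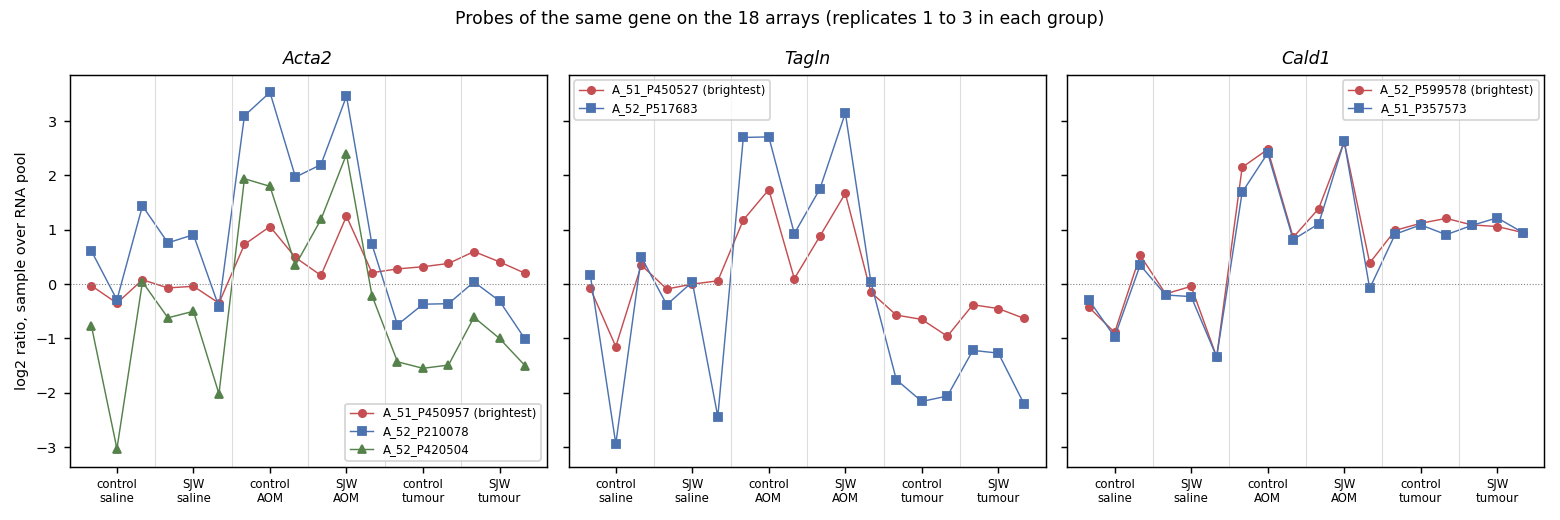
Log2 ratio over the RNA pool (vertical axis) on the 18 arrays in group order (horizontal axis), 1 line per probe of Acta2, Tagln and Cald1. The brightest Acta2 and Tagln probes trace a flatter line than the other probes of those genes, while the 2 Cald1 probes overlie each other.

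None of the 10 genes was called by limma between the diets: 0 passed after saline, 0 after AOM and 0 in tumours, as 0% of all genes were. At an unadjusted p under 0.05 the counts were also 0, 0 and 0, against 10.7%, 3.18% and 6% of all genes. The medians of SJW minus control diet were -0.13, -0.38 and 0.24. The intervals leave room for sizeable differences. For Des the 95% interval ran from -2.29 to 1.17 after saline, from -2.21 to 1.25 after AOM and from -1.32 to 2.14 in tumours. For Acta2 it ran from -0.56 to 0.45, from -0.72 to 0.29 and from -0.43 to 0.58.

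Within slides, the saline difference turned sign with the slide. SJW minus control diet had a median of -0.09 on slide 1, 1.44 on slide 2, where all 10 genes were higher on SJW, and -1.84 on slide 3, where all 10 were lower. After AOM the medians were -0.65, 0.15 and -0.44. In tumours they were 0.2 on slide 4 and -0.03 on slide 5.

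Replicate arrays varied widely for these genes outside tumours. The mean of the 10 on each array was 0.18, -1.2 and 0.78 in control-diet saline mice and 0.08, 0.24 and -0.95 in SJW saline mice. It was 2.14, 2.39 and 0.87 after AOM on the control diet and 1.48, 2.54 and 0.31 on SJW. In tumours it was -0.62, -0.68 and -0.93 on the control diet and -0.44, -0.37 and -0.8 on SJW. Saline and AOM groups thus each spanned more than 1 log2 unit, and all tumour arrays together lay within -0.93 to -0.37.

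Gene by gene, the within-group SD over non-tumour arrays ran from 0.37 for Acta2 to 1.39 for Cnn1, against a median of 0.22 over all genes. Of the 10, 9 lay at or above percentile 96.1 of all genes for that spread, and Acta2 at percentile 82.4. In tumours the SD ran from 0.09 for Cald1 to 0.59 for Cnn1, against a median of 0.21 over all genes. Deviations from the group means correlated positively between every pair of the 10 genes across the 18 arrays, with r from 0.671 to 0.973 and a median of 0.865 over 45 pairs. The arrays share their reference and their slides, so these correlations are descriptions.

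Against the mean of the other 9, Des followed most closely (r = 0.985) and Acta2 least (r = 0.793). Over the 6 tumour arrays alone the same correlation ran from -0.0484 for Cald1 to 0.97 for Myh11. Cald1, Smtn (0.188) and Lmod1 (0.103) had little relation to the others there.

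Genes outside the 10 were ranked by how closely their deviations followed the mean of the 10, over the same 18 arrays. Csrp1, a LIM-domain protein of smooth muscle, came first at r = 0.989. Tpm2, the muscle beta tropomyosin, followed at 0.972, then Pdlim3, a PDZ-LIM protein of actin bundles, at 0.964 and Synm, the desmin partner synemin, at 0.961. Tns1, a focal adhesion protein, had 0.958 and Mustn1 0.949. Flna, the actin cross-linker filamin A, had 0.929, the adhesion molecule Clmp 0.926, the cardiac actin Actc1 0.921 and the light chain kinase Mylk 0.912. An r over 0.9 was reached by 25 of 26073 genes (0.0959%), members included. Over tumour arrays alone the 10 genes named here ran from -0.261 for Mylk to 0.845 for Actc1.

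The other parts of the contractile machinery are given next, averaged over diets. Of all genes, 3.28% were called higher and 2.3% lower with AOM, and 19.4% higher and 27.2% lower in tumours, and the counts are to be read against these shares. Of 24 measured thin filament, cytoskeletal and kinase partners, 16 rose with AOM and 0 fell, with a median of 0.81; in tumours 1 rose and 18 fell, with a median of -1.28. Without SJW AOM replicate 2 or SJW saline replicate 3, 10 and 9 of the partners rose with AOM. Csrp1 rose by 2.11 ± 0.38 (SE, adjusted p = 0.00618) and Flna by 1.88 ± 0.35 (SE, adjusted p = 0.00693). Ppp1r14a, an inhibitor of myosin phosphatase, rose by 1.30 ± 0.22 (SE, adjusted p = 0.00399). In tumours Synpo2, a Z-disc and actin-bundle protein, fell by 3.47 (SE 0.39, adjusted p = 4.77e-06) and Fhl1, a LIM-domain protein of muscle, by 2.24 (SE 0.19, adjusted p = 2.45e-07). Pdlim7 was the 1 that rose, by 0.73 ± 0.18 (SE, adjusted p = 0.00406).

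Channels, receptors and calcium-handling genes of visceral muscle moved little with AOM. One of 17 rose, Kcnmb1, the beta subunit of the large-conductance potassium channel, by 0.79 ± 0.21 (SE, adjusted p = 0.0363), and 0 rose without SJW AOM replicate 2 or SJW saline replicate 3, against 2 without SJW AOM replicate 3. In tumours 9 fell and 2 rose, among them the muscarinic receptor Chrm2, which fell by 1.11 (SE 0.16, adjusted p = 4.3e-05), and the potassium channel Kcnma1, which fell by 1.49 (SE 0.27, adjusted p = 0.000324).

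Of 13 measured transcriptional regulators of the contractile programme, 3 rose with AOM: Foxf2 by 0.71 ± 0.14 (SE, adjusted p = 0.0111), Foxf1 by 0.58 ± 0.13 (SE, adjusted p = 0.02) and Fhl2 by 0.50 ± 0.12 (SE, adjusted p = 0.0259). Foxf1 and Foxf2 are forkhead factors of gut mesenchyme. Without SJW AOM replicate 3, 1 regulator was called higher. In tumours 5 regulators fell and 2 rose, not far from the shares over all genes, and nothing is read from these counts. Klf4, which opposes the contractile state in vascular muscle and is also made by differentiated colon epithelium, fell by 2.45 (SE 0.12, adjusted p = 5.39e-09). Mrtfa, a serum response factor partner, fell by 0.59 (SE 0.09, adjusted p = 9.05e-05), and Foxf1 rose by 0.82 ± 0.13 (SE, adjusted p = 0.000132). Srf, the response factor itself, changed by -0.22 ± 0.13 (SE, adjusted p = 0.172) and Myocd, myocardin, by -0.43 ± 0.28 (SE, adjusted p = 0.222). Mrtfb changed by 0.14 ± 0.09 (SE, adjusted p = 0.19), and none of these passed the test. With AOM, Srf, Myocd, Mrtfa and Mrtfb were not called.

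Non-muscle counterparts of the members, listed together with the tropomyosins Tpm3 and Tpm4, rose in 7 of 14 cases with AOM, with a median of 0.36. No tropomyosin is among the members. Cnn2, the calponin of many non-muscle cells, rose by 1.05 ± 0.17 (SE, adjusted p = 0.00327) and Tpm4 by 0.68 ± 0.10 (SE, adjusted p = 0.00154). Without SJW AOM replicate 2, SJW AOM replicate 3 or SJW saline replicate 3 the count with AOM was 3 of 14 each time. In tumours 4 rose and 5 fell, of which 0 fell under median centring, and the list's median of -0.14 turned to 0.07 under median centring and to 0.02 when only red intensities were used. Vim, the vimentin of mesenchymal cells, rose by 1.34 ± 0.33 (SE, adjusted p = 0.00411) and Cnn3 by 0.73 ± 0.16 (SE, adjusted p = 0.00156), in the tumours where Des and Cnn1 fell.

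Markers of neighbouring cell types moved beside the muscle genes, and their part in the results was not tested. Of 11 fibroblast and matrix genes, 10 rose with AOM, with a median of 1.23, and their array means ran from -2.4 to -1.76 in saline mice and from -1.25 to 0.08 after AOM, where the 0.08 was SJW AOM replicate 2 and the other AOM arrays lay at or below -0.82. Without that array 7 of the 11 rose with AOM, with a median of 1.00. In tumours 7 of them rose and 2 fell: Col5a2 rose by 2.00 ± 0.22 (SE, adjusted p = 3.62e-06), while Lum fell by 1.5 (SE 0.33, adjusted p = 0.00175). Pericyte and vascular muscle genes rose in 4 of 8 cases with AOM, Mcam by 1.40 ± 0.19 (SE, adjusted p = 0.00117); in tumours 1 rose, Pdgfrb, and 1 fell, Mustn1.

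Genes of enteric neurons and glia, whose plexuses lie in and beside the muscle layers, rose in 2 of 14 cases with AOM. The count was 1 without SJW AOM replicate 2 or SJW saline replicate 3. In tumours 10 of 14 fell and 1 rose, S100b, by 0.47 ± 0.18 (SE, adjusted p = 0.0391). Sox10 fell there by 1.28 (SE 0.14, adjusted p = 3.2e-06). Vip, a neuropeptide that relaxes gut muscle, rose by 1.93 ± 0.40 (SE, adjusted p = 0.0137) and fell in tumours by 2.65 (SE 0.40, adjusted p = 7.93e-05). Ano1, the chloride channel of the pacemaker interstitial cells of Cajal, fell in tumours by 1.28 (SE 0.30, adjusted p = 0.00292), as did Etv1 by 1.29 (SE 0.20, adjusted p = 0.000104). Of the 6 genes of Cajal and PDGFRA-positive interstitial cells, 2 were called higher with AOM, Pdgfra and Gja1. The count was 1 without any 1 of the 3 arrays that stood apart. In tumours 3 were higher and 2 lower. Those higher were Pdgfra by 0.92 ± 0.14 (SE, adjusted p = 7.51e-05), Gja1 by 0.93 ± 0.15 (SE, adjusted p = 0.000175) and Kcnn3 by 0.40 ± 0.14 (SE, adjusted p = 0.0272).

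Endothelial genes rose in 1 of 10 cases with AOM and 3 of 10 in tumours, or 6 of 10 without SJW AOM replicate 3. Myofibroblast and tumour stroma genes rose in 2 of 6 cases with AOM, Postn by 1.37 ± 0.30 (SE, adjusted p = 0.0166), and in 1 of 6 in tumours, Inhba. Mesothelium had 2 measured genes, of which Msln rose with AOM by 1.16 ± 0.31 (SE, adjusted p = 0.0375), a call lost without any 1 of the 3 arrays that stood apart. Adipocyte genes fell in 1 of 7 cases with AOM, a call lost in the same way, and in 3 of 7 in tumours. These lists are small, and nothing is read from their tumour counts beside the shares over all genes.

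Of 18 striated muscle genes, 2 rose with AOM, the actins Acta1 by 1.83 ± 0.28 (SE, adjusted p = 0.00233) and Actc1 by 1.93 ± 0.35 (SE, adjusted p = 0.0066). The actin genes are close relatives, and cross-reaction between their probes was not tested. In tumours 9 of the 18 fell, or 6 without SJW AOM replicate 2, Ckm, the muscle creatine kinase, by 2.52 (SE 0.35, adjusted p = 3.7e-05). Epithelial genes were called in 0 of 9 cases with AOM and fell in 8 of 9 in tumours, where their array means ran from 2.41 to 2.93 against 3.42 to 3.77 after AOM. Acinar genes were called in 0 of 9 cases with AOM and fell in 4 of 9 in tumours, or 7 of 9 without SJW AOM replicate 2.

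**Figure D5:**
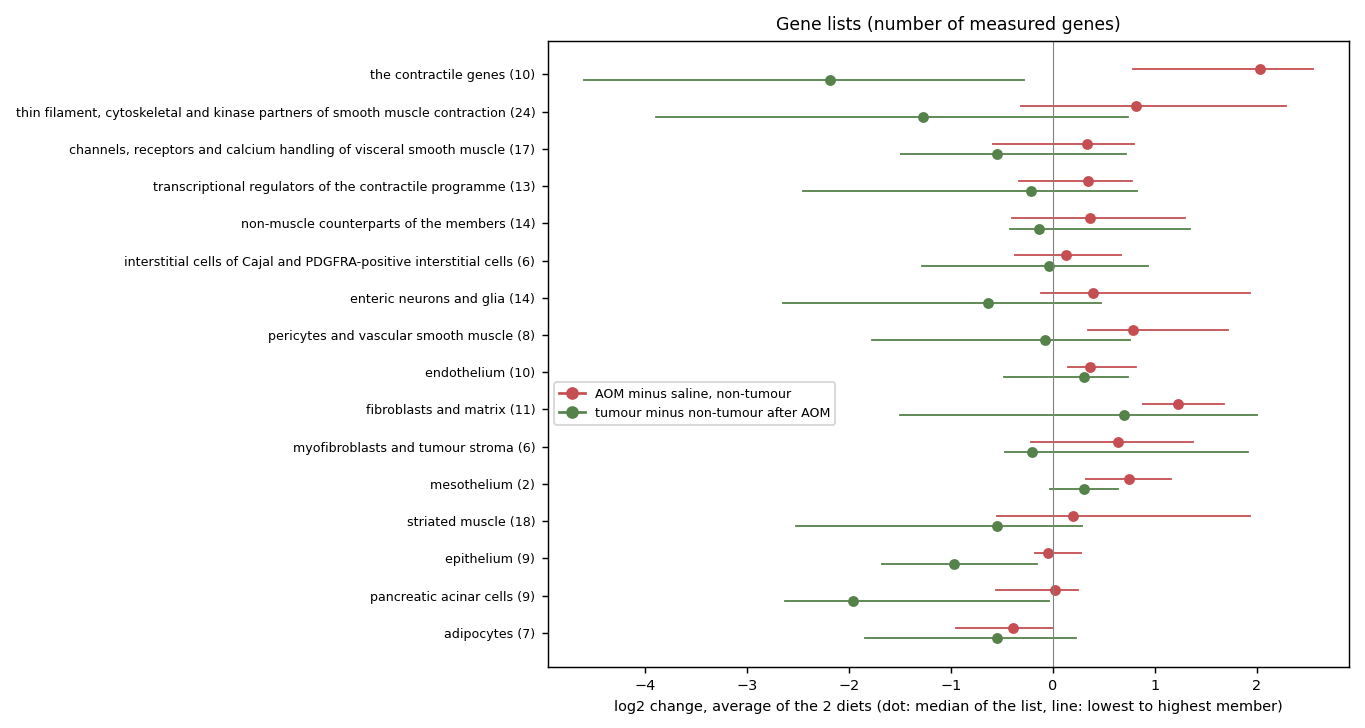
Log2 change averaged over the 2 diets (horizontal axis) for each list of genes (vertical axis, number of measured genes in brackets); dots are list medians and lines run from the lowest to the highest gene. The contractile genes have medians of 2.03 with AOM and -2.19 in tumours, while fibroblast and matrix genes have medians of 1.23 and 0.70.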

How the data were processed

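Red (sample) and green (reference) median spot intensities came from the deposited scanner files, written by Agilent Feature Extraction 10.10.1.1 with mm9 annotation per the file headers; dyes were not swapped. Intensities were background-corrected (normexp, offset 50) and loess-normalized within arrays, with control spots at weight 0 and outlier spots left out (R 4.3.3, limma 3.58.1). Of 41174 probes, 34081 were kept, those well above background on all 3 arrays of at least 1 group; the brightest probe stood for each of 26073 genes. Probes were named through RefSeq accessions, and 16799 of these genes had a symbol. One limma fit of all 18 arrays gave every comparison, with Benjamini-Hochberg adjustment.

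The authors' deposited value table holds log2 red over green (slope against the scanner 0.9998 to 1.003). The deposited scanner log10 ratio and that table served as alternatives, as did other normalizations, blocks and each array left out. Replicates correlated at 0.903 to 0.958 over all genes, and arrays of different groups at 0.692 to 0.975. No array was imputed or dropped. Precision is limited by 3 arrays per group. The code was tested on simulated data. Named genes of a list are at most 3 per direction, by lowest p, plus the 10 genes that follow the members most closely. Fewer are printed, and Srf, Myocd and Mrtfb were added later whatever their values. The genes and lists were chosen with earlier results of these data known, and the liver genes were added later.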

Additional observations from a re-analysis of the deposited data

How the results depend on the processing

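No called contractile gene turned sign under any alternative; of their 2541 values, 2398 kept their side of the threshold, 47 passed it newly and 96 lost it, and 133 values that had not passed turned sign, mainly differences between diets. The count for AOM averaged over diets went from 9 to 5 with reference brightness as a block and to 5 with only the compared groups in the fit, and ran from 5 to 10 with each array left out. For AOM on the control diet the count of 0 became 1 with median centring, 1 with the scanner log ratio and 4 with array weights (0 to 1 with each array left out). On SJW it became 5 with array weights (0 to 0). For tumours against AOM tissue, the deposited values, which held 7 of the 10 genes, gave 5 on the control diet and 5 averaged over diets; each array left out gave 7 to 8 and 8 to 8. On SJW the count of 7 became 4 with median centring and ran from 3 to 8. Against saline tissue, the control-diet count of 2 became 1 when only red intensities were used, 1 with the scanner log ratio, 1 with the deposited values, 1 without background correction and 4 with array weights (0 to 3); the SJW count of 1 became 2 with the scanner log ratio, 3 with array weights and 4 with only the compared groups (0 to 1). The cause was not tested, except that the deposited values test fewer members. Counts of 0 for diet and for the differences between diets were 0 under every alternative run. The replicate number as a block gave 9, 8 and 7 for AOM averaged over diets, tumours on the control diet and tumours on SJW, as without it; same-numbered arrays deviated together with a median r of 0.0236, so the numbers were not taken as pairs. The scanner log ratio moved the median of all genes for AOM averaged over diets to -0.12, and median centring moved that of tumours against saline tissue to 0.14 on the control diet. Among the other genes chosen by rule, Tpm3 turned from a rise to -0.05 with AOM under the deposited values, and in tumours from a fall to 0.52 under the deposited values and 0.03 with the mean of probes; Tagln2 turned from a fall in tumours to 0.04 from red intensities only. Of the 2229 values of these other genes, 150 lost their call. Counts of the other lists moved too, over the same alternatives and without SJW AOM replicate 2, SJW AOM replicate 3 or SJW saline replicate 3: with AOM, contractile partners higher from 8 to 18, fibroblast genes higher from 6 to 10, non-muscle counterparts higher from 2 to 8, channels higher from 0 to 6 and regulators higher from 1 to 6. In tumours, partners lower ran from 13 to 19, neurons and glia lower from 5 to 12, striated muscle lower from 4 to 10, epithelium lower from 3 to 8 (3 in the deposited values, which held 3 of them) and endothelium higher from 2 to 8.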
